A study of Mus musculus with 9 samples.

Results

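The genes described here are the mouse zinc finger genes whose symbols run from Zfp700 to Zfp999, chosen by symbol alone: every row of the deposited tables named Zfp followed by a 3-digit number in that range was taken, which gave 98 of 24411 genes. RNA was measured in embryonic stem cells of the EB5 line, which derives from the male E14tg2a line of strain 129Ola and carries the modified allele Oct3/4IRES-BSD-pA on 1 of its Oct3/4 genes, so all groups compared share that allele. The 9 libraries fell into 3 genotypes of 3 libraries each, all grown on gelatin in serum and leukemia inhibitory factor. Parental cells are the unedited EB5 line, Zfp352-KO cells had Zfp352 deleted with the nuclease Cas9, and Zfp352/Zfp353-DKO cells had both Zfp352 and Zfp353 deleted the same way. The labels say neither how many clones each edited genotype came from nor whether libraries of a genotype were separate cultures, so the p-values speak for the spread of these libraries alone, and that spread may be technical.

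C2H2 zinc fingers are short folds held by a zinc ion, and a row of them reads DNA sequence. Many mammalian zinc finger proteins also carry a KRAB domain, which recruits the co-repressor Trim28 and, through it, Setdb1, an enzyme that places repressive histone methylation. Such KRAB zinc finger genes sit in clusters of related copies, and in embryonic stem cells several of them are known to silence retroelements. The numbers in the symbols are assigned names and do not mark a family, so genes were kept apart by whether a KRAB motif was found. A search by motif can miss a domain, so the genes without the motif may include KRAB genes.

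A search of translated coding sequences found a KRAB motif in 65 of the 98 genes and none in 31, and for the other 2, Zfp783 and Zfp939, no coding sequence was matched. At least 5 C2H2 fingers were found in 83 genes, with a median of 12 fingers in genes with the KRAB motif, a median of 7 in those without, and 23 at most. The genes lay on 17 chromosomes, with 21 on chromosome 7, 18 on chromosome 17, 14 on chromosome 8 and 10 on chromosome 13. Runs of at least 4 of them, each starting at most 500 kb after the start of the one before, numbered 7 and held 41 genes. Genes outside the set may lie between the genes of a run. Of the 98 genes, 35 had an expected count that was not whole in at least 1 library, which means that RSEM, the program that made the counts, divided reads between genes there. Of these 35, 30 carried the KRAB motif and 4 did not.

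The targeted gene was read first. Zfp352 had expected counts of 47, 52 and 41 in Parental libraries 1, 2 and 3, 3, 8 and 10 in those of Zfp352-KO cells, and 1, 1 and 3 in those of Zfp352/Zfp353-DKO cells, so no edited library overlapped a Parental one. Zfp353 was not analysed here. Summed over the embryonic stem cell markers Pou5f1, Nanog, Sox2, Esrrb and Zfp42, levels in TPM, a unit corrected for transcript length and library size, lay between 3214 and 3365 in the 9 libraries. Libraries summed to 16599004 to 22044820 expected counts. Within a genotype, every pair of libraries differed beyond sampling noise (chi-square of 2.51 to 7.04 for each degree of freedom).

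Nearly all of the genes were transcribed, most at low levels. Mean TPM over the 9 libraries was at least 1 for 89 of the 98 genes, at least 10 for 33 and at least 50 for 4, with a median of 7.48. Genes with the KRAB motif had a median of 6.99 and those without had 9.16. Zfp735 had no count in any library, Zfp957 had 1 count in total, and Zfp831 and Zfp872 had between 4 and 24 counts per genotype. These 4 genes were too low to be tested, which left 94. The highest were Zfp710 (mean 125 TPM), Zfp961, a KRAB zinc finger gene (103), Zfp740 (84.3), Zfp706 (66.0), Zfp809 (45.1) and Zfp936 (42.6). Of these 6, only Zfp936 passed the test in a comparison with Parental cells on the counts as deposited.

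**Figure D1:**
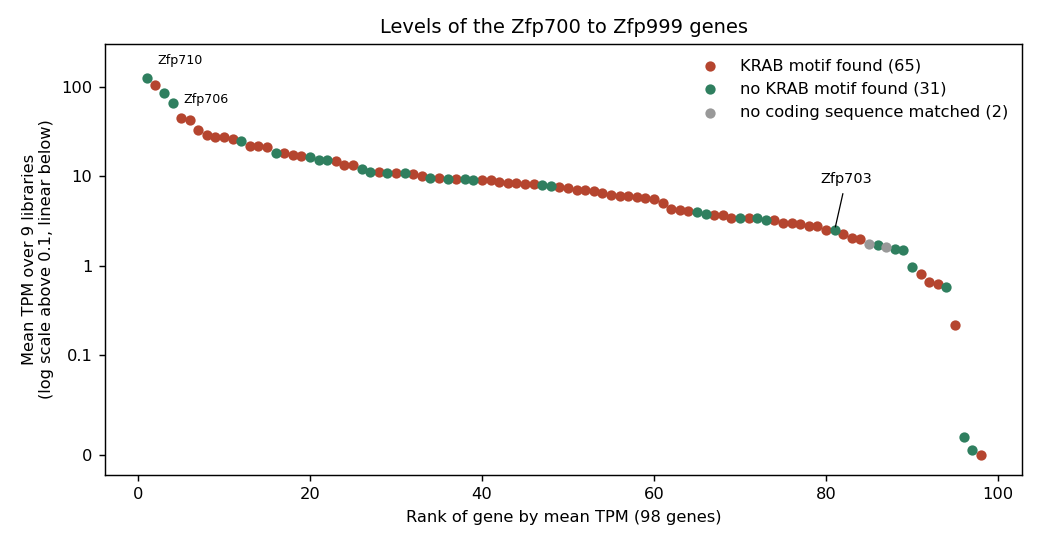
Mean TPM over the 9 libraries of each of the 98 genes, in order of level, on an axis that is logarithmic above 0.1 and linear below, with colour giving whether the KRAB motif was found. Zfp710 leads at 125 TPM, the median gene is at 7.48, Zfp703 is at 2.48 and Zfp735 is at 0.

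Against Parental cells, Zfp352-KO cells had higher transcript levels for 9 of the 94 tested genes and lower levels for 2, by the quasi-likelihood test of edgeR at a Benjamini-Hochberg adjusted p under 0.05 over all 14300 tested genes. Of all tested genes, 3.43% rose and 3.64% fell in the same comparison. The genes that rose were Zfp944, Zfp945, Zfp704, Zfp871, Zfp866, Zfp942, Zfp932, Zfp936 and Zfp709, and those that fell were Zfp703 and Zfp771. The double deletion gave 8 genes that rose and 1 that fell, beside 3.65% and 4.82% of all tested genes. Those that rose were Zfp827, Zfp704, Zfp936, Zfp938, Zfp945, Zfp871, Zfp866 and Zfp953, and the one that fell was Zfp703. Both comparisons use the same 3 Parental libraries, so their calls are not independent. Between Zfp352/Zfp353-DKO and Zfp352-KO cells 0 of the 94 genes passed the test by edgeR, and likewise 0 by DESeq2 and by limma. Of all tested genes, 0.014% rose and 0.0909% fell there. At an unadjusted p under 0.05, 4 of the 94 (4.26%) did so by edgeR, beside 6.43% of all tested genes. Counted instead by groups whose CPM values did not overlap, 29 of the 94 genes lay above and 6 below the Parental libraries in Zfp352-KO cells (13% and 14.4% of all tested genes did), and 24 above and 6 below them in Zfp352/Zfp353-DKO cells (13.1% and 15%). The Zfp352/Zfp353-DKO libraries lay above those of Zfp352-KO cells for 6 genes and below them for 5 (5.49% and 5.6%).

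The steepest change was a fall of Zfp703, on chromosome 8 at 26977336 to 26981462 (GRCm38.p6, the assembly called mm10). Zfp703 encodes a nuclear co-repressor whose human counterpart is amplified in luminal breast cancers. It had 4.04, 3.26 and 3.45 TPM in Parental libraries 1, 2 and 3. With Zfp352 deleted, the libraries had 2.44, 1.91 and 2.16 TPM. In the Zfp352/Zfp353-DKO libraries it had 1.76, 1.74 and 1.60 TPM. The 3 genotypes did not overlap: every Parental library lay above every Zfp352-KO library, and these above every Zfp352/Zfp353-DKO library. The expected counts behind these levels were 151, 117 and 114, then 66, 70 and 74, then 63, 57 and 48, all whole numbers, and the length of the gene was 3171 bases in every library. The log2 fold change was -0.78 ± 0.14 (SE, n = 3 against 3; edgeR adjusted p = 0.0027) in Zfp352-KO cells, or 0.581 times the Parental level. Cells of the Zfp352/Zfp353-DKO genotype had -1.11 ± 0.15 (edgeR adjusted p = 5.8e-05), or 0.462 times. The direct difference between the edited genotypes, -0.33 ± 0.16, did not pass the test (edgeR adjusted p = 0.79). Zfp703 passed the test in both comparisons with Parental cells when any 1 of the 9 libraries was left out, with log2 fold changes of -0.85 to -0.69 and of -1.16 to -1.01.

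Summed levels of 2 other marker lists were ordered by genotype as Zfp703 was, and that of another was not. The summed TPM of the fibroblast-type markers Col1a1, Col1a2, Col3a1, Tagln and Thy1 was 74.2 to 83.0 in Parental, 43.2 to 50.6 in Zfp352-KO, then 33.3 to 38.4 in Zfp352/Zfp353-DKO libraries, and 4 of the 5 had a mean over 1 TPM. The trophectoderm markers Cdx2, Krt8, Krt18, Gata3 and Eomes summed to 244 to 286, 168 to 177 and 141 to 154 TPM in the same order, with 4 of the 5 over 1 TPM on average and Krt8 and Krt18 holding most of the sum. Not every marker of these lists had that order: mean TPM by genotype, in the same order, was 0.813, 0.987 and 0.813 for Gata3 and 2.50, 2.14 and 2.46 for Eomes, and Thy1 was at 6.37 in Parental and 6.06 in Zfp352/Zfp353-DKO cells, with its lowest mean in Zfp352-KO cells. None of the 10 markers was at 0 on average in any genotype. The 2-cell-like markers Zscan4c, Zscan4d, Zscan4f, Tcstv3 and Zfp352, the last of them the targeted gene, summed to 184 to 191 TPM in Parental, 222 to 236 in Zfp352-KO and 184 to 202 in Zfp352/Zfp353-DKO libraries, and 4 of the 5 had a mean over 1 TPM. Members of this list differed. Mean TPM in the same order was 39.8, 52.8 and 45.4 for Zscan4c, 21.9, 25.9 and 23.0 for Zscan4d, and 110, 146 and 121 for Zscan4f. Tcstv3, at 13.5, 6.24 and 4.71, and Zfp352, at 1.86, 0.293 and 0.0733, had the order of Zfp703. The part of cells of these marked types in the level of Zfp703 was not tested, and in bulk RNA fewer cells of a type and less RNA per cell cannot be told apart.

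Zfp704, on chromosome 3 at 9427010 to 9610085, rose in both edited genotypes, where Zfp703 fell. It had 12.98, 12.06 and 15.78 TPM in Parental, 19.48, 17.50 and 16.42 in Zfp352-KO, and 16.56, 16.89 and 20.59 in Zfp352/Zfp353-DKO libraries. All 6 edited libraries lay above all 3 Parental ones, although Parental library 3 came within 1 TPM of the lowest edited one. The log2 fold change was 0.34 ± 0.08 (edgeR adjusted p = 0.012) in Zfp352-KO and 0.36 ± 0.08 (edgeR adjusted p = 0.0051) in Zfp352/Zfp353-DKO cells. At 13844 bases Zfp704 was the longest of the tested genes of this set, and it overlaps C030034L19Rik in the annotation. Whether the counting used the strand is not given in the sources used here, so reads of overlapping genes may be shared. In Zfp352-KO cells the call was lost without Parental library 1, Parental library 2 or Zfp352-KO library 1 (highest edgeR adjusted p = 0.10). The Zfp352/Zfp353-DKO call was lost without Parental library 1 alone (edgeR adjusted p = 0.053).

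Zfp827, on chromosome 8 at 79027486 to 79193768, rose in Zfp352/Zfp353-DKO cells. Its human counterpart is known to bring a chromatin remodelling complex to telomeres maintained by recombination. It had 2.83, 2.34 and 2.74 TPM in Parental, 3.11, 3.57 and 3.30 in Zfp352-KO, and 3.72, 3.90 and 3.79 in Zfp352/Zfp353-DKO libraries. Here too the 3 genotypes did not overlap, in the opposite order to Zfp703. The log2 fold change was 0.49 ± 0.09 (edgeR adjusted p = 0.0019) in Zfp352/Zfp353-DKO cells, where the call held when any 1 library was left out. In Zfp352-KO cells it was 0.30 ± 0.09, which did not pass (edgeR adjusted p = 0.055), and the direct difference of 0.19 ± 0.09 did not pass either (edgeR adjusted p = 0.75). Its length stayed between 7604 and 7609 bases.

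Zfp771, on chromosome 7 at 127242996 to 127254872, had 18.37, 16.57 and 17.21 TPM in Parental, 14.35, 14.88 and 12.44 in Zfp352-KO and 13.70, 15.30 and 15.07 in Zfp352/Zfp353-DKO libraries. Both edited genotypes lay wholly below the Parental libraries. The log2 fold change of -0.37 ± 0.10 passed in Zfp352-KO cells (edgeR adjusted p = 0.029), and that of -0.29 ± 0.10 in Zfp352/Zfp353-DKO cells did not (edgeR adjusted p = 0.071). Zfp771 was the shortest of the tested genes of this set at 1230 bases and had a GC content of 68.7%. Its call in Zfp352-KO cells was lost without any 1 of Parental libraries 1 and 2 and the 3 Zfp352-KO libraries (highest edgeR adjusted p = 0.15).

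**Figure D2:**
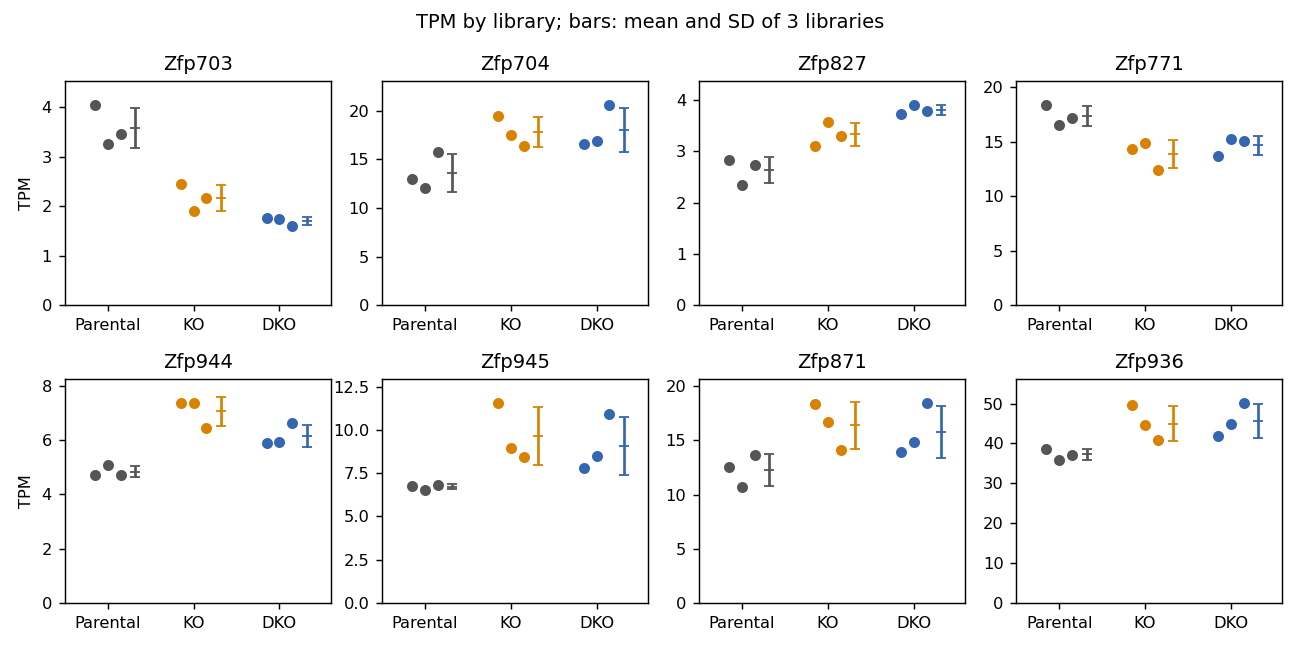
TPM in each library for 8 of the genes that passed a test, with points for libraries 1 to 3 of each genotype from left to right and bars giving the mean and SD of 3 libraries; KO is Zfp352-KO and DKO is Zfp352/Zfp353-DKO. Zfp703 falls from 3.26 or more in Parental libraries to 1.76 or less in Zfp352/Zfp353-DKO libraries, Zfp771 is below its Parental level in all edited libraries, and the other 6 genes are above their Parental levels in all edited libraries.

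Zfp703, Zfp704, Zfp771 and Zfp827 belong to a list of genes with a named role, drawn up as a list outside the KRAB family. Of its genes 16 were in the tables and 15 were tested, and it may still hold KRAB genes that the motif search missed. In Zfp352-KO cells 1 of the 15 rose (Zfp704) and 2 fell (Zfp703 and Zfp771), with a median log2 fold change of -0.01, beside 3.43% and 3.64% of all tested genes and a median of -0.01. In the double deletion 2 rose (Zfp704 and Zfp827) and 1 fell (Zfp703), with a median of 0.04, beside 3.65% and 4.82% of all tested genes and a median of -0.00. The other 11 tested genes of the list did not pass in either comparison. Zfp706, a small protein whose loss is known to hold mouse embryonic stem cells in self-renewal, had a mean of 65.9 ± 1.08 TPM (SD, n = 3) in Parental, 65.8 ± 0.939 in Zfp352-KO, then 66.3 ± 3.50 in Zfp352/Zfp353-DKO cells. Zfp740 likewise had 82.7 ± 2.45, 84.6 ± 2.53 and 85.7 ± 2.08 TPM. Zfp710 had 118 ± 8.16, 124 ± 4.93 and 133 ± 5.46 TPM, and its log2 fold change of 0.13 ± 0.05 in Zfp352/Zfp353-DKO cells did not pass the test (edgeR adjusted p = 0.084). Zfp750, known for its part in epidermal differentiation, had 8.86 ± 0.174, 9.27 ± 1.48 and 9.36 ± 0.783 TPM. Zfp830 had 23.9 ± 1.33, 26.1 ± 0.143 and 24.6 ± 1.32 TPM. Zfp746, a repressor known as a substrate of the ligase parkin, had 10.7 ± 0.753, 11.1 ± 0.367 and 11.5 ± 1.07 TPM, with no KRAB motif found by the search used here. The X-linked Zfp711, whose human counterpart is mutated in intellectual disability, was at 0.610 ± 0.046, 0.620 ± 0.030 and 0.493 ± 0.096 TPM, the lowest mean of the tested genes of the set. Zfp768, Zfp787, Zfp800 and Zfp839 also belong to the list, and the lowest of these 4 was Zfp800 at a mean of 1.69 TPM.

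Genes with the KRAB motif were mostly higher in the edited cells on the counts as deposited, and less so once trends with length and GC content were removed. In Zfp352-KO cells 55 of the 63 tested had a log2 fold change above 0, with a median of 0.16, and 8 of them (12.7%) rose and 0 fell. Over all 14300 tested genes the median was -0.01 and 47.8% were above 0. The count above 0 was 55 of the 63 in Zfp352/Zfp353-DKO cells also, with a median of 0.16, and 6 (9.52%) rose and 0 fell. The median over all tested genes was then -0.00, with 7144 above 0. The 29 tested genes without the motif had medians of -0.00 and 0.04, with 14 and 19 above 0. The KRAB genes with numbers outside this range had similar counts: of the 96 tested, 9 rose in Zfp352-KO, then 12 in Zfp352/Zfp353-DKO cells, with medians of 0.14 in both. With the length and GC trend of each library removed, described further on, 43 and 48 of the 63 genes (68.3% and 76.2%) lay above 0, beside 55.1% and 57.4% of all genes fitted. Of the 63, 3 (4.76%) rose in each comparison, beside 3.02% and 5.57% of all genes fitted.

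The KRAB genes with a known repressor target were part of this. Zfp932, which binds and represses endogenous retroviruses, had 19.09, 19.95 and 17.11 TPM in Parental, 25.57, 23.99 and 22.10 in Zfp352-KO and 20.48, 23.41 and 24.68 in Zfp352/Zfp353-DKO libraries. No edited library of Zfp932 overlapped the Parental ones, and its log2 fold change of 0.30 ± 0.08 passed in Zfp352-KO cells (edgeR adjusted p = 0.033) and not, at 0.24 ± 0.08, in Zfp352/Zfp353-DKO cells (edgeR adjusted p = 0.072). The Zfp352-KO call was lost without Parental library 1 or 3 or Zfp352-KO library 1 or 2 (highest edgeR adjusted p = 0.14). Zfp809, which recognises the primer binding site of murine leukemia virus and recruits Trim28 to it, had 41.68, 39.47 and 42.90 TPM in Parental, 51.59, 50.78 and 44.31 in Zfp352-KO and 42.23, 43.49 and 49.36 in Zfp352/Zfp353-DKO libraries. The Zfp352-KO libraries of Zfp809 lay above all Parental ones, and the log2 fold change of 0.20 ± 0.06 did not pass (edgeR adjusted p = 0.060). Zfp809 overlaps Zfp599 in the annotation. Zfp708, Zfp819 and Zfp961 had log2 fold changes of 0.07, 0.03 and 0.11 in Zfp352-KO and 0.03, 0.06 and 0.07 in Zfp352/Zfp353-DKO cells, none of which passed.

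The other KRAB genes that passed in both comparisons with Parental cells, on the counts as deposited, were Zfp936, Zfp945, Zfp871 and Zfp866. Of these calls, those of Zfp936 in Zfp352/Zfp353-DKO cells and of Zfp945 in Zfp352-KO cells held with length and GC trends removed, and none of Zfp871 and Zfp866 did. Zfp936, on chromosome 7 at 43114166 to 43192109, had 38.72, 35.89 and 37.20 TPM in Parental, 49.66, 44.55 and 40.77 in Zfp352-KO and 41.82, 44.89 and 50.20 in Zfp352/Zfp353-DKO libraries. Its log2 fold changes were 0.22 ± 0.06 (edgeR adjusted p = 0.038) and 0.25 ± 0.06 (edgeR adjusted p = 0.017). Zfp871, on chromosome 17 at 32765496 to 32788287 and 10850 bases long, had 12.53, 10.73 and 13.62 TPM, then 18.37, 16.73 and 14.10, then 13.89, 14.90 and 18.48, with log2 fold changes of 0.37 ± 0.09 (edgeR adjusted p = 0.016) and 0.32 ± 0.09 (edgeR adjusted p = 0.029). Zfp866, on chromosome 8 at 69761324 to 69774911, had 15.04, 15.04 and 16.22 TPM, then 19.33, 18.82 and 17.48, then 16.96, 18.63 and 18.73, with log2 fold changes of 0.22 ± 0.05 (edgeR adjusted p = 0.021) and 0.19 ± 0.05 (edgeR adjusted p = 0.034). All edited libraries of these 3 genes lay above all Parental ones, with Zfp352-KO library 1 the highest Zfp352-KO library for each. Passing in 1 comparison only were Zfp709 (0.41 ± 0.12 in Zfp352-KO cells, edgeR adjusted p = 0.048), Zfp938 (0.41 ± 0.10 in Zfp352/Zfp353-DKO cells, edgeR adjusted p = 0.019) and Zfp953 (0.40 ± 0.11 in Zfp352/Zfp353-DKO cells, edgeR adjusted p = 0.034). Zfp953 overlaps Zfp595 in the annotation. Each of these 6 genes lost its call in 3 to 6 of the 9 omissions of 1 library, with adjusted p up to 0.21 in Zfp352-KO, then 0.17 in Zfp352/Zfp353-DKO cells. The omissions that ended calls were of Parental libraries 1, 2 and 3 and Zfp352-KO libraries 1 and 2, of Zfp352/Zfp353-DKO library 2 in either comparison, and of Zfp352/Zfp353-DKO library 3 in the comparison of that genotype.

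A run of 10 of the genes on chromosome 17, at 21565816 to 22867309, held 3 of the 9 that rose in Zfp352-KO cells: Zfp942, Zfp944 and Zfp945. The run consists of Zfp948, Zfp760, Zfp820, Zfp942, Zfp943, Zfp947, Zfp944, Zfp758, Zfp946 and Zfp945, in that order. In Zfp352-KO cells 9 of the 10 had log2 fold changes above 0, with a median of 0.35 and a range of -0.11 to 0.84. In Zfp352/Zfp353-DKO cells 9 of the 10 were above 0, with a median of 0.21, and Zfp945 alone passed. Zfp944 had 4.71, 5.09 and 4.73 TPM in Parental, 7.36, 7.38 and 6.44 in Zfp352-KO and 5.90, 5.95 and 6.64 in Zfp352/Zfp353-DKO libraries. Each edited library of Zfp944 lay above all Parental ones, and its log2 fold change was 0.49 ± 0.10 in Zfp352-KO cells (edgeR adjusted p = 0.0062), while it was 0.30 ± 0.10 in Zfp352/Zfp353-DKO cells (edgeR adjusted p = 0.069). Zfp945 had 6.73, 6.55 and 6.83 TPM, then 11.57, 8.94 and 8.44, then 7.77, 8.48 and 10.94, with log2 fold changes of 0.46 ± 0.10 (edgeR adjusted p = 0.011) and 0.38 ± 0.10 (edgeR adjusted p = 0.024). Zfp942 had 2.85, 3.07 and 3.10 TPM, then 5.28, 4.39 and 3.51, then 3.51, 3.66 and 3.68, with log2 fold changes of 0.49 ± 0.13 (edgeR adjusted p = 0.030) and 0.23 ± 0.13 (edgeR adjusted p = 0.31). In Zfp945 and Zfp942 the rise was uneven, with Zfp352-KO library 1 well above libraries 2 and 3. Zfp758, singled out after its values were seen for the largest fitted rise, had 1.47, 1.18 and 1.40 TPM in Parental and 3.54, 2.26 and 1.85 in Zfp352-KO libraries (0.84 ± 0.25, edgeR adjusted p = 0.050, not passing). The call of Zfp944 in Zfp352-KO cells was lost without Parental library 1 alone (edgeR adjusted p = 0.052). That of Zfp945 there was lost without Parental library 1 or Zfp352-KO library 1 (up to 0.070), and in Zfp352/Zfp353-DKO cells without any 1 Parental library or Zfp352/Zfp353-DKO library 3 (edgeR adjusted p up to 0.13). That of Zfp942 was lost without any 1 Parental library or Zfp352-KO library 1 or 2 (edgeR adjusted p up to 0.17).

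The promoters of 3 genes of this run are given with that of Zfp936 from chromosome 7 for contrast. Those of Zfp942 and Zfp944 are much alike. Each window covers 250 bases before the start of 1 RefSeq transcript and 50 from it on, on GRCm38.p6, written 5′ to 3′ on the gene's strand. That start need not be the outer end of the gene: it lies 39, 28 and 175 bases inside the gene as annotated for Zfp942, Zfp944 and Zfp945, and 63424 bases inside it for Zfp936, whose gene span begins at a more distant start. They lie at chr17:21962415-21962714 (Zfp942, minus strand), chr17:22361351-22361650 (Zfp944, minus strand), chr17:22867085-22867384 (Zfp945, minus strand) and chr7:43177340-43177639 (Zfp936, plus strand). The Zfp942 window reaches into the span of Zfp943, which begins at 21962559. That of Zfp944 reaches into the span of Zfp758, which begins at 22361430. Capitals mark matches, on either strand, to GGGCGG (a GC box), CCAAT, and GCCATNTT (the core recognised by the factor YY1).
Zfp942: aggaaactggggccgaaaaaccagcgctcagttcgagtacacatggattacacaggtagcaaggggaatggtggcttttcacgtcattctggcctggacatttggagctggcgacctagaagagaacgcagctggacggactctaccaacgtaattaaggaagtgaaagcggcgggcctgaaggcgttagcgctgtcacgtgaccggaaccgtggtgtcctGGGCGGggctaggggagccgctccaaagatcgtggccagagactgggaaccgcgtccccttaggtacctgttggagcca
Zfp944: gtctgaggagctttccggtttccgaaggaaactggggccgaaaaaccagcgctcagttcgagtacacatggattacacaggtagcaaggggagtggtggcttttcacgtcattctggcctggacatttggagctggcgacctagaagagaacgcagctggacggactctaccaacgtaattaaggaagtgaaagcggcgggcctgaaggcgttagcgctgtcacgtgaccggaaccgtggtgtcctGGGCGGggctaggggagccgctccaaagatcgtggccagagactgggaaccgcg
Zfp945: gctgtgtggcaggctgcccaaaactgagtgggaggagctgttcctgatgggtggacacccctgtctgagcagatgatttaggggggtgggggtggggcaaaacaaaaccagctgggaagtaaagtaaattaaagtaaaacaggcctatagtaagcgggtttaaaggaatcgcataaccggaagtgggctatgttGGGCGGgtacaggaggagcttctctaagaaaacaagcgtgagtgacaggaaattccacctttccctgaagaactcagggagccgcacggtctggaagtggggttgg
Zfp936: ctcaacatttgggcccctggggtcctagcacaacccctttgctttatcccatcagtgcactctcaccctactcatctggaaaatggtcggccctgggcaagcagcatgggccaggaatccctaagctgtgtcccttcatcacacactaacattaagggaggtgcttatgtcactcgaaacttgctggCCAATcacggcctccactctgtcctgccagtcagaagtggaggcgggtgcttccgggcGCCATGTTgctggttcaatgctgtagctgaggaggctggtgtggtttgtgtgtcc
Zfp942 and Zfp944 share an unbroken run of 207 bases, displaced within the window, and 84.3% identity in a global alignment. Zfp945 had 50.6% and 48.4% identity to them, beside a median of 49.9% over the 3655 pairs of 86 genes with a window. Counts of Zfp942 and of Zfp944 were not whole in 9 of 9 libraries, so some reads were divided with other genes. This leaves the value of either gene uncertain. The same limit holds for Zfp932, Zfp936 and Zfp868, not whole in 9 libraries, and for Zfp758 and Zfp708, not whole in 8. Counts of Zfp945 and of Zfp953 were not whole in 1 library. With which genes reads were divided, and how many reads, was not tested.

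Among the 86 genes with a RefSeq window, 61.6% had a CCAAT match on either strand, beside 39.5% of 210 other Zfp genes and 37.9% of all 26994 windows. The GCCATNTT match was found in 18.6%, 10.95% and 6.21% of the same sets, the GGGCGG match in 43.0%, 46.7% and 35.9%, and TATAAA in 3.49%, 7.14% and 14.2%. A match is a description of the letters and no sign of a bound factor. The windows held a median of 10.5 CpG dinucleotides, beside 16 in other Zfp genes and 7 overall.

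Across the tested genes of the set, the fold changes moved with base composition more than with length. Transcripts of the 94 tested genes had a median GC content of 42.1%, beside 46.5% for other Zfp genes and 50.8% for all tested genes. With untested genes included, the 65 genes with the KRAB motif had 40.1% and the 31 without it had 51.1%. The median length of the 94 tested genes was 3112.5 bases. Across the 94 genes Spearman's rho between log2 fold change and GC content was -0.58 in Zfp352-KO, then -0.49 in Zfp352/Zfp353-DKO cells, while that with length was 0.14 and 0.21. Over all tested genes rho with GC content was -0.36 and -0.29, and rho with length 0.38 and 0.31. These describe genes within the same 9 libraries, which share depth and processing, and carry no p-value. Of the 47 genes below the median GC content, 42 lay above 0 in Zfp352-KO cells with a median log2 fold change of 0.18, while of the 47 at or above it 28 did with a median of 0.02. The counts in Zfp352/Zfp353-DKO cells were 44 and 30 and the medians 0.18 and 0.05.

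**Figure D3:**
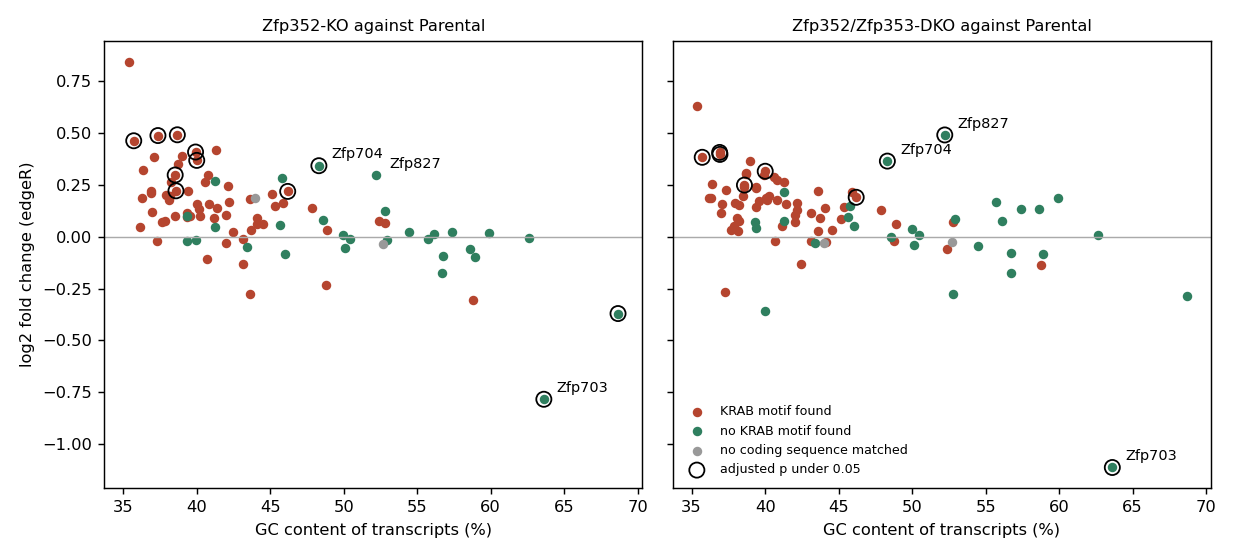
log2 fold change of each of the 94 tested genes against the GC content of its transcripts in percent, for both comparisons with Parental cells; colour gives the KRAB motif and rings mark an adjusted p under 0.05. Genes with low GC content lie mostly above 0, and Zfp703 stands lowest in both panels at -0.78 and -1.11.

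The level of the set also differed between libraries of 1 genotype. The median deviation of the 94 genes from their 9-library mean of log2 CPM (counts scaled to the size of the library) was -0.07, -0.06 and -0.06 in Parental libraries 1, 2 and 3, 0.04, 0.05 and 0.00 in those of Zfp352-KO cells, and -0.05, 0.05 and 0.10 in those of Zfp352/Zfp353-DKO cells. Zfp352/Zfp353-DKO library 1 thus lay by the Parental libraries. Over all tested genes, rho between a library's deviation and GC content was 0.24, 0.20 and 0.37 in Parental, -0.37, -0.14 and 0.01 in Zfp352-KO and 0.23, -0.08 and -0.38 in Zfp352/Zfp353-DKO libraries. Of the 63 tested genes with the KRAB motif, 36 had their highest Zfp352-KO level in library 1 and 46 their lowest in library 3. Likewise 49 had their highest Zfp352/Zfp353-DKO level in library 3 and 46 their lowest in library 1. The 29 tested genes without the motif leaned to the same libraries. Of them, 14 had their highest Zfp352-KO level in library 1 and 17 their lowest in library 3. Their highest Zfp352/Zfp353-DKO level was in library 3 for 13, and their lowest in library 1 for 21. These shares were not counted over all tested genes. The summed level of the 98 genes was 1140 to 1206 TPM in Parental, 1221 to 1338 in Zfp352-KO, then 1208 to 1366 in Zfp352/Zfp353-DKO libraries.

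Refitting with these trends removed changed which genes passed. With a trend of log2 CPM on length taken out of each library, 12 genes rose and 1 fell in Zfp352-KO and 11 rose and 1 fell in Zfp352/Zfp353-DKO cells, beside 3.13% and 5.43% of all tested genes that rose and 2.67% and 4.64% that fell. Between the edited genotypes 0 of the 94 genes passed with the length trend removed (0.042% of all genes rose and 0.238% fell) and 0 with length and GC content removed (0.0702% and 0.316%), with 7 (7.45%) at an unadjusted p under 0.05 in each, beside 7.83% and 9.56% of all genes. With length and GC content both taken out, 4 rose and 1 fell in Zfp352-KO cells, beside 3.02% and 2.67% of all genes fitted, and 4 of the 11 earlier calls remained. After the same removal 7 rose and 1 fell in Zfp352/Zfp353-DKO cells, beside 5.57% and 4.7%, and 5 of the 9 earlier calls remained. The shares of the 94 genes that rose, 4.26% and 7.45%, were then near those of all genes. Medians for genes with the KRAB motif fell from 0.16 to 0.06 in Zfp352-KO and from 0.16 to 0.08 in Zfp352/Zfp353-DKO cells, beside 0.01 and 0.02 over all genes fitted.

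Zfp703 and Zfp704 passed in both comparisons after this removal. Zfp703 stood at -0.67 (edgeR adjusted p = 0.0049) and -1.03 (edgeR adjusted p = 2.9e-05), and Zfp704 at 0.16 (edgeR adjusted p = 0.014) and 0.26 (edgeR adjusted p = 4.4e-05). Zfp944 (0.39) and Zfp945 (0.20) still passed in Zfp352-KO cells, and Zfp827 (0.46), Zfp938 (0.31, edgeR adjusted p just under the threshold at 0.050) and Zfp936 (0.15) in Zfp352/Zfp353-DKO cells. Not passing on the counts as deposited but passing here were Zfp809 in Zfp352-KO cells (0.23, edgeR adjusted p = 0.024) and Zfp710 (0.17, edgeR adjusted p = 0.0014), Zfp865 (0.24, edgeR adjusted p = 0.034) and Zfp868 (0.21, edgeR adjusted p = 0.034) in Zfp352/Zfp353-DKO cells. Zfp809 and Zfp868 also passed there with the length trend alone removed (edgeR adjusted p = 0.013 and 0.019), while Zfp710 and Zfp865 did not (edgeR adjusted p = 0.068 and 0.14). Zfp771 went from -0.37 to -0.11 in Zfp352-KO cells and no longer passed (edgeR adjusted p = 0.62). Zfp871 went from 0.37 to 0.11 and from 0.32 to 0.12 and passed in neither comparison (edgeR adjusted p = 0.13 and 0.084), nor did Zfp866 at 0.13 in both (edgeR adjusted p = 0.11 and 0.083). Calls were likewise lost for Zfp709, Zfp932, Zfp936 and Zfp942 in Zfp352-KO cells (edgeR adjusted p = 0.051 to 0.16) and for Zfp945 and Zfp953 in Zfp352/Zfp353-DKO cells (edgeR adjusted p = 0.092 and 0.14). The run of 10 genes on chromosome 17 had medians of 0.17 and 0.10 after the removal. All genes fitted had 0.01 and 0.02, and the run of 6 genes on chromosome 13 had 0.01 and 0.13.

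**Figure D4:**
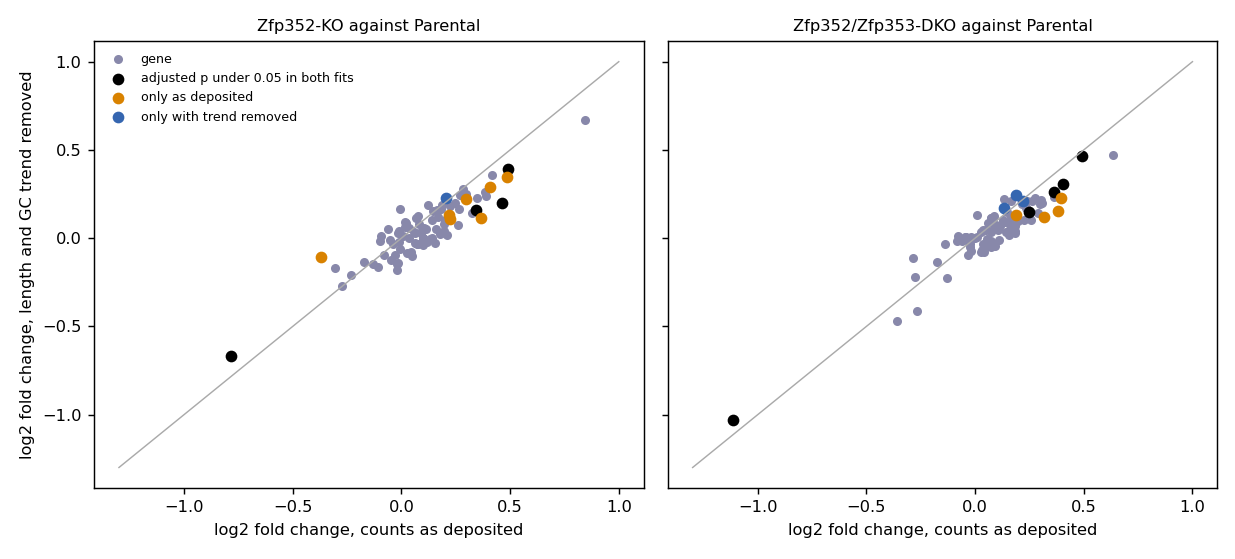
log2 fold change of the 94 tested genes with the counts as deposited (horizontal axis) and after the length and GC trend of each library was removed (vertical axis), for both comparisons with Parental cells; the grey line marks equal values and colour marks the fit in which a gene had an adjusted p under 0.05. Zfp703 keeps its place at the lower left, while most genes right of 0 fall below the line.

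The length column itself was read beside these changes. RSEM gives a gene's length as the mean over its transcripts weighted by their estimated shares, so it moves only where the estimated use of transcripts does. Of the 94 tested genes, 20 had a length that varied between libraries, by a median of 1.40% and at most by 8.95%, in Zfp799. Zfp799 was given 6008 bases in 7 libraries, 5477 in Parental library 3 and 5884 in Zfp352-KO library 2. By limma on log2 length over the 3910 tested genes whose length varied, 0 of the 20 passed in any comparison, beside 0.0256% or fewer of all these genes longer and 0.0512% or fewer shorter. At an unadjusted p under 0.05, 1 of the 20 did so in Zfp352-KO cells, Zfp945, and 0 in the other comparisons. Zfp945 had lengths of 6529, 6553 and 6543 bases in Parental and 6506, 6522 and 6513 in Zfp352-KO libraries, a log2 difference of -0.006 ± 0.002 (limma adjusted p = 0.85). The genes that passed the expression test on the counts as deposited therefore had the same length, or one within 1 percent, in every library.

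A co-repressor list of 19 genes took in KRAB co-repressors and other silencing and methylation factors, so it is wider than the partners of KRAB proteins. It held Trim28, Setdb1, Atf7ip, Cbx1, Cbx3, Cbx5, Chd4, Hdac1, Hdac2, Rbbp4, Fam208a, Mphosph8, Pphln1, Morc3, Daxx, Atrx, Smarcad1, Uhrf1 and Dnmt1. In Zfp352-KO cells 4 of the 19 rose and 0 fell, with 16 above 0 and a median log2 fold change of 0.09, beside 3.43% of all tested genes that rose, 3.64% that fell, 47.8% above 0 and a median of -0.01. Of the same genes, 3 rose and 0 fell in Zfp352/Zfp353-DKO cells, with 15 above 0 and a median of 0.06, beside 3.65%, 4.82%, 50% and -0.00. With length and GC trends removed, 2 of the 19 rose in each comparison, beside 3.02% and 5.57% of all genes fitted. Dnmt1, the maintenance DNA methyltransferase, had 100.7, 100.7 and 105.7 TPM in Parental, 149.6, 148.3 and 136.1 in Zfp352-KO and 136.8, 141.5 and 148.2 in Zfp352/Zfp353-DKO libraries. Its edited libraries lay far above the Parental ones, with log2 fold changes of 0.45 ± 0.04 and 0.44 ± 0.04 (edgeR adjusted p = 4.4e-06 and 2.0e-06), which stood at 0.44 and 0.44 once both trends were removed. Fam208a, a subunit of the HUSH silencing complex, rose by 0.34 ± 0.08 and 0.33 ± 0.08 (edgeR adjusted p = 0.020 and 0.019). Smarcad1, a chromatin remodeller, rose by 0.22 ± 0.06 and 0.19 ± 0.06 (edgeR adjusted p = 0.029 and 0.043), and Atrx, a remodeller that deposits histones at repeats, by 0.33 ± 0.09 in Zfp352-KO cells (edgeR adjusted p = 0.031). After that removal, Smarcad1 and Atrx no longer passed in either comparison (edgeR adjusted p = 0.13 to 0.85), and Fam208a passed only in Zfp352/Zfp353-DKO cells (0.14, edgeR adjusted p = 0.015). Atf7ip, a partner of Setdb1, did not pass in Zfp352-KO cells on the counts as deposited (0.23, edgeR adjusted p = 0.057) and passed there once both trends were removed (0.19, edgeR adjusted p = 0.038). Trim28 itself was at 1384 ± 30.5 TPM in Parental, 1427 ± 58.5 in Zfp352-KO, then 1450 ± 9.77 in Zfp352/Zfp353-DKO cells, with log2 fold changes of -0.00 and 0.03 that did not pass. Setdb1, at 0.14 and 0.08, did not pass either (edgeR adjusted p = 0.055 and 0.26). Omission of single libraries was not run for the genes of this list.

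The counts of calls rested on single libraries more than the values did. The number that rose in Zfp352-KO cells was 0 without Parental library 1, 1 without Zfp352-KO library 1, 3 without Parental library 2 or Zfp352-KO library 2, 15 without Zfp352/Zfp353-DKO library 3 and 17 without Zfp352-KO library 3. In Zfp352/Zfp353-DKO cells it was 2 without Parental library 1 or Zfp352/Zfp353-DKO library 3, 3 without Parental library 2 or Zfp352/Zfp353-DKO library 2, and 14 without Zfp352/Zfp353-DKO library 1. The share of all tested genes that rose moved in the same omissions. In Zfp352-KO cells it was 0.346% without Parental library 1 and 0.537% without Zfp352-KO library 1. Without Parental library 2 that share was 0.953%, and without Zfp352-KO library 2 it was 1.03%. It reached 5.77% without Zfp352/Zfp353-DKO library 3 and 5.78% without Zfp352-KO library 3. In Zfp352/Zfp353-DKO cells it was 0.852% without Parental library 1 and 1.54% without Zfp352/Zfp353-DKO library 3. Without Parental library 2 that share was 1.53%, and without Zfp352/Zfp353-DKO library 2 it was 1.78%. It reached 4.82% without Zfp352/Zfp353-DKO library 1. Medians over the genes of the set that could be tested stayed between 0.10 and 0.13 in Zfp352-KO cells and between 0.08 and 0.15 in Zfp352/Zfp353-DKO cells, and at least 53 of the 63 or 64 tested genes with the KRAB motif lay above 0 in every omission.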

How the data were processed

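Polyadenylated RNA was sequenced from 9 libraries, per the labels' protocols, on a stranded TruSeq kit. Per the submitters' processing notes, the authors worked on mm10 with RSEM 1.3.3, STAR 2.7.8a and Trim Galore 0.6.6. The sources used here do not give the order, settings or annotation release. Per the file headers, the deposited tables hold expected counts (RSEM estimates, not always whole), TPM and a length in bases for each gene; the FPKM and effective length columns were not used. Symbols were matched to RefSeq GRCm38.p6 (24318 of 24411).

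Rounded expected counts went into edgeR 4.0.16 under R 4.3.3 (TMM, with factors of 0.992 to 1.01, filterByExpr, glmQLFit and glmQLFTest, two-sided, all 9 libraries in 1 fit, 6 residual degrees of freedom, no block). Log2 length was tested with limma 3.58.1. Benjamini-Hochberg adjusted p under 0.05 was the threshold. The common biological coefficient of variation was 4.95%. GC content, finger counts and the KRAB motif came from GENCODE transcripts, with GC content for 14249 of the 14300 tested genes. Trends were removed as offsets from local regressions (span 0.3) of log2 CPM on length, or on length and GC content, in each library. The scripts were tested on simulated data. Alternatives included DESeq2 1.42.0 and limma on log2(TPM + 1).

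The genes and lists were chosen with earlier results of these data known. Named genes are those that passed in a comparison, 2 role lists and the 6 highest by mean TPM. Genes of the co-repressor list that passed, and Zfp352, were named too. Zfp758, Zfp783, Zfp939, Zfp799, the untested genes and the rest of the run on chromosome 17 were named after their values were seen. So were the genes that passed only with a trend removed, Atf7ip among them, and the rest of the co-repressor list.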

Additional observations from a re-analysis of the deposited data

How the results depend on the processing

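The genes that passed kept their directions under every alternative and omission run: of their values there, 315 stayed on their side of the threshold, 125 did not pass and 0 reversed. In Zfp352-KO cells the number of genes that rose (9) was 1 by limma on log2(TPM + 1), 16 of 97 tested with no filter beyond 1 count, 1 at an adjusted p under 0.01, 17 at an adjusted p under 0.10, 14 with only the 6 libraries compared, and 4 when length and GC trends were removed. The number that fell (2) was 1 by DESeq2, by limma, at an adjusted p under 0.01, with the length trend removed alone, together with GC content, or together with a replicate block. In Zfp352/Zfp353-DKO cells the number that rose (8) was 2 by limma, 2 at an adjusted p under 0.01, 15 at an adjusted p under 0.10 and 5 with a replicate block, and the number that fell (1) was 2 at an adjusted p under 0.10. The median log2 fold change went from 0.0998 to 0.045 in Zfp352-KO and from 0.121 to 0.068 in Zfp352/Zfp353-DKO cells with the length and GC trend removed. Smaller counts at stricter thresholds follow from the threshold, and the cause of the other changes was not tested. Among these settings, the share of all genes was counted only with the length trend, or the length and GC trend, removed. The other counts therefore do not show whether the genes of the set moved more than all genes did.

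With 1 library left out, the number of genes that rose ranged from 0 to 17 in Zfp352-KO and from 2 to 14 in Zfp352/Zfp353-DKO cells, those that fell from 1 to 2 and from 1 to 1, the medians from 0.097 to 0.126 and from 0.083 to 0.149, and that between the edited genotypes from -0.029 to 0.037. Leaving out 1 library of a genotype assumes that the other 2 vary like the rest. Zfp703 in both comparisons and Zfp827 in Zfp352/Zfp353-DKO cells passed under every alternative and omission run. The length column gave 0 genes under each alternative run.

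Deviations of libraries with the same replicate number correlated between -0.124 and 0.124. Libraries with different numbers were not compared in this way, so these values cannot tell whether the numbers pair the libraries. With the number as a replicate block 6 genes rose and 2 fell in Zfp352-KO cells, and 5 rose and 1 fell in Zfp352/Zfp353-DKO cells. The share of all genes was not counted with that block. For genes with few counts, such as Zfp711, depth limits the size of change that could pass.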
